A study of Mus musculus with 6 samples.

Results

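Interferon-stimulated genes are the transcripts that cells raise when interferon binds its receptor. Here they are a list of 35 mouse genes, chosen by symbol from knowledge of the pathway, but with earlier results of these data known. All 35 were found among the 54532 genes of the table. Of these, 25 had a mean of at least 0.5 FPKM over the 6 libraries and were tested among 17453 genes. The other 10 were too low (Herc6, Rsad2, Mx2, Oas2, Zbp1, Oas1a, Mx1, Oasl1, Ifi44 and Oas3). FPKM is the number of sequenced fragments scaled by gene length and library total. At the border of this minimum, Dhx58 averaged 0.535 FPKM and Herc6 averaged 0.339 FPKM.

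The samples were retinas of mouse pups with oxygen-induced retinopathy, a model in which high oxygen stops the growth of retinal vessels and return to room air drives new, disordered vessels. Every pup was kept with its mother in 75% ± 2% oxygen from postnatal day 7. On postnatal day 12 the antagomir group received 1 nmol of miR-381-3p antagomir into the vitreous, and the control group 1 nmol of a negative control antagomir (antagomir nc). Retinas were collected on postnatal day 17, with 3 libraries in each group. Such an antagomir is a synthetic antisense molecule that blocks its microRNA. Both groups had the same oxygen exposure and an injection, and no uninjected or room-air retina is analysed here. The labels name no strain and do not tie each library to an animal. The p-values therefore measure the spread between these libraries, which may be technical. The table marks 3 columns with an X that no label explains; they were read as the antagomir libraries, the remaining group, and every direction given here rests on that reading. The question of the study was what miR-381-3p does in retinal neovascularization.

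When interferon binds its receptor on a cell, the receptor-bound kinases JAK1 and TYK2 activate STAT proteins, STAT2 among them. With IRF9 these form a complex that binds the interferon-stimulated response element (ISRE) in promoters. The induced proteins sense viral RNA, block translation, trap virions, modify proteins with ISG15 and feed back on the pathway. In the retina, microglia, Müller glia and vascular cells can all respond to interferon.

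The microRNA that the antagomir targets and some promoter stretches that match the core of the response element are shown first. Mature miR-381-3p (RefSeq, GRCm38.p6, chr12:109726870-109726891, plus strand) is printed with its seed, bases 2 to 8, in capitals.
mmu-miR-381-3p: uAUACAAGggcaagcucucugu
A site that pairs with this seed reads CTTGTAT in a transcript. It was present in the longest annotated 3′ UTR (GENCODE M21, GRCm38) of 2 of the 35 interferon-stimulated genes, or 5.71%, against 11.2% of 21028 genes. The median 3′ UTR length was 961 bases for the 35 genes and 960.5 bases for all genes. The sites lay in Dtx3l and in Herc6, with the match in capitals.
Dtx3l: aaagtgaaaccCTTGTATaaatgggaact
Herc6: gaccaatacatCTTGTATactagttctac
A match to these letters is a description and not evidence of binding.

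The core of the response element was searched as GAAANNGAAA on both strands, overlapping matches included, in the 250 bases before and 50 bases after each annotated start (RefSeq, GRCm38.p6). Of the 35 genes, 25 had a promoter in that table. The core was present in 12 of them, or 48%, against 3.99% of 27025 genes with a promoter of the same length. The 12 were Bst2, Ddx58, Eif2ak2, Ifih1, Ifit1, Ifit3, Ifit3b, Isg15, Oas1a, Oas3, Rsad2 and Stat2. Of these 12, groups overlapped in level for Bst2, Eif2ak2, Ifit1, Ifit3, Ifit3b, Oas3 and Rsad2, and Oas1a was under the minimum. Isg15, Ddx58, Ifih1 and Stat2 were picked for printing because they were tested and their groups did not overlap. The stretch around the core is printed 5′ to 3′ along each of these genes, with matches in capitals.
Isg15 (chr4:156200850-156200921, minus strand): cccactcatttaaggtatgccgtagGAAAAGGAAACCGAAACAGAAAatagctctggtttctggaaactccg
Ddx58 (chr4:40239789-40239848, minus strand): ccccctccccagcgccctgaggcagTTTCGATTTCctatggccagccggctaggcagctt
Ifih1 (chr2:62646206-62646248, minus strand): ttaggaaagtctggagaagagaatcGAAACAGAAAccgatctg
Stat2 (chr10:128270251-128270310, plus strand): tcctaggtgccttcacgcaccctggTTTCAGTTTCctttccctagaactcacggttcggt
The Isg15 promoter held 3 overlapping matches, the nearest beginning 66 bases before the annotated start, and the other promoters shown held 1 match each. That match began 222 bases before the annotated start in Stat2, but 2 bases after it in Ddx58 and 32 bases after it in Ifih1. These matches, too, are descriptions and not evidence of binding. Oasl2 and Xaf1, described below, had no match to these letters in this window.

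Most interferon-stimulated genes had higher values in antagomir retinas than in control retinas, by small amounts, and no single gene passed the test. The mean FPKM was higher in antagomir retinas for 31 of the 35 genes, lower for 3 (Cmpk2, Trim25 and Ifi35) and the same to 4 digits for Irf7. By limma on log2(FPKM + 1), 0 of 25 tested genes passed an adjusted p of 0.05, where 0% of all 17453 genes tested passed. The log2 fold change was above 0 for 22 of the 25 (88%), against 50.5% of all genes tested. Its median was 0.13 over the 25 genes and 0.0013 over all genes. At an unadjusted p under 0.05 by limma, 3 of 25 genes were higher (Oasl2, Isg15 and Xaf1), or 12%, against 3.22% of all genes, and 0 were lower, against 2.98%. The 3 antagomir libraries all lay above the 3 control libraries for 9 of 25 tested genes (36%), against 6.16% of all genes tested, and all below them for 0, against 5.87%. Rtp4 and Ifih1, of these 9, and the tested gene Dhx58 reached the minimum only through their antagomir values. Their control means were 0.450, 0.420 and 0.452 FPKM. Because the list was chosen with earlier results of these data known, these shares are descriptions and not a test of the set. The direction did not hold evenly across the libraries: with the 3 libraries that carried lens transcripts left out, 17 of 25 genes were higher and the median log2 fold change was 0.075, a fit of 2 antagomir libraries against 1 control.

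**Figure D1:**
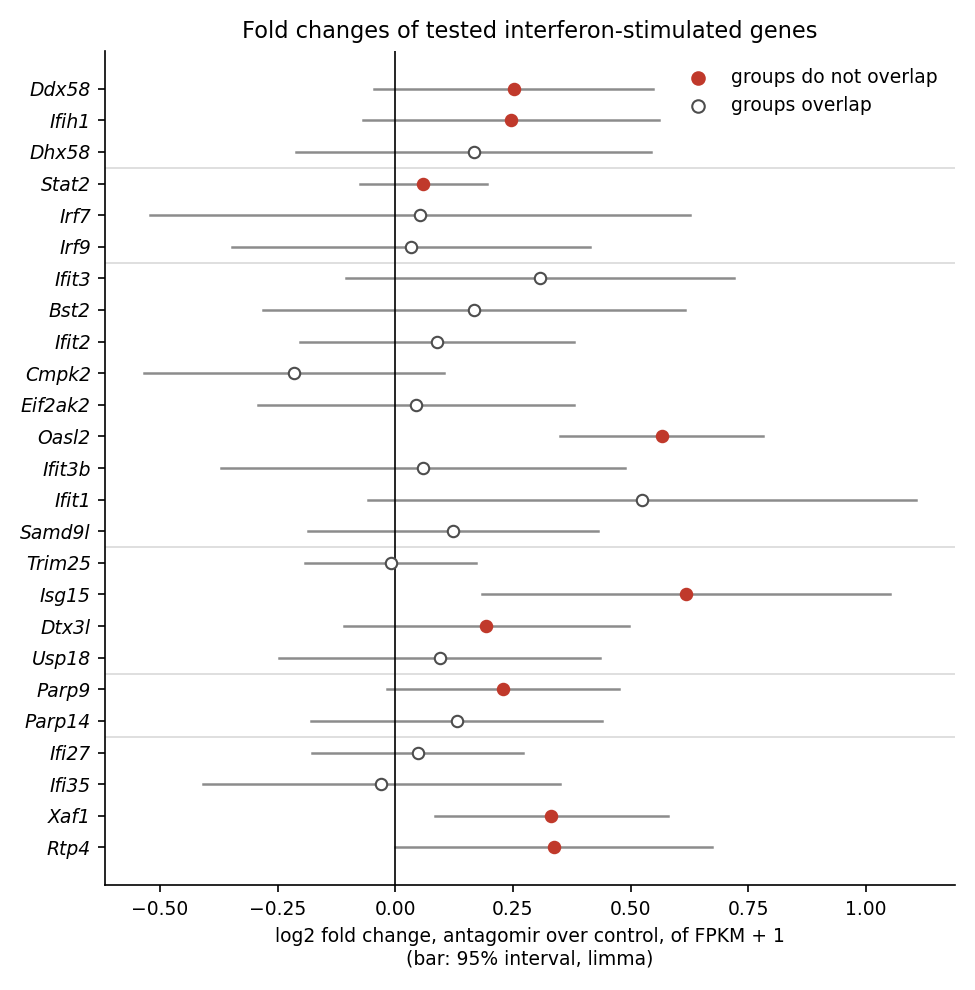
Log2 fold change of FPKM + 1, antagomir over control, for the 25 tested interferon-stimulated genes in order of role, with 95% intervals from limma (3 libraries per group). Filled points mark the 9 genes whose groups did not overlap; 22 of the 25 points lie right of 0, and the intervals of Oasl2, Isg15 and Xaf1 lie wholly above 0.

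**Figure D2:**
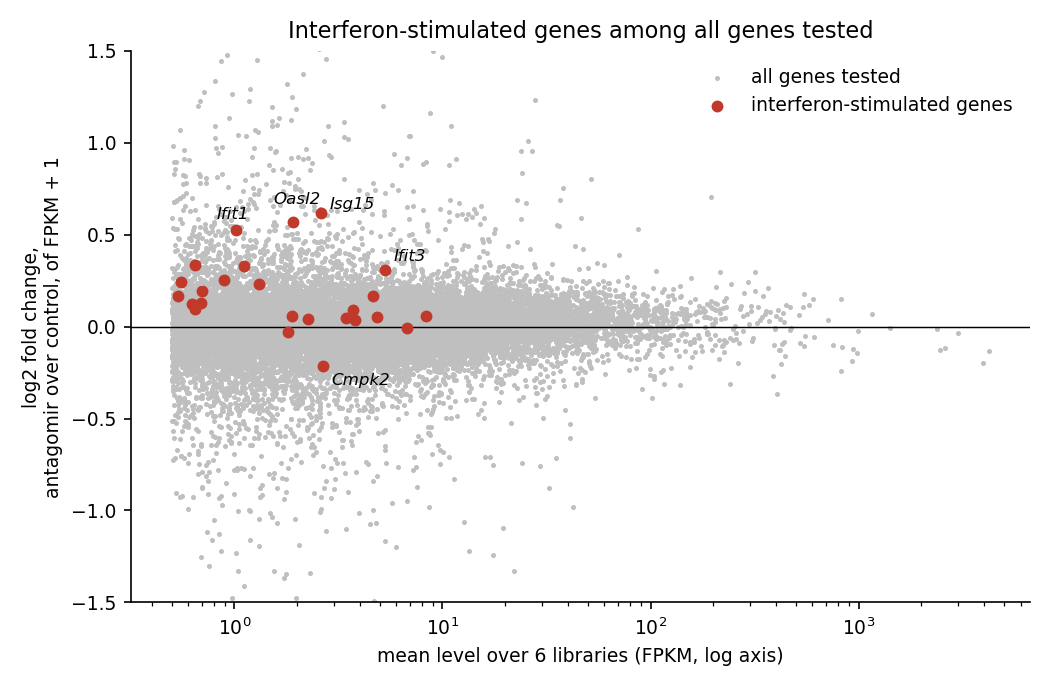
Mean level over the 6 libraries (FPKM, log axis) against log2 fold change of FPKM + 1 for the 17453 genes tested, with the 25 tested interferon-stimulated genes in red. The red points lie among the lower levels, from 0.535 to 8.37 FPKM, and mostly above 0; 28 genes fall outside the plotted range of 1.5 on either side of 0.

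The difference was larger among the less abundant genes. The 14 genes with a mean of 0.5 to 2 FPKM had a median log2 fold change of 0.21, with 13 above 0 and 7 without overlap above the controls, against a median of -0.0090 and 5.26% without overlap for all 4980 genes of that level. Among these 14 are Rtp4, Ifih1 and Dhx58, which reached 0.5 FPKM only through their antagomir values. The 11 genes with a mean of at least 2 FPKM had a median of 0.053, with 9 above 0. These are values on the log2(FPKM + 1) scale, which shrinks the change of low genes. A higher level in whole-retina RNA cannot tell more expressing cells from more transcript per cell.

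Among the sensors, which detect viral or misplaced nucleic acid and start the pathway, all 3 tested genes had higher means in antagomir retinas. Ddx58, which encodes the RNA sensor RIG-I (ENSMUSG00000040296, chromosome 4), stood at 1.27, 0.968 and 0.946 FPKM in antagomir libraries 1, 2 and 3, against 0.715, 0.859 and 0.615 FPKM in control libraries 1, 2 and 3. Its lowest antagomir library lay above its highest control library, with a log2 fold change of 0.25 (SE 0.12, adjusted p = 0.805 by limma). Ifih1, which encodes MDA5, a sensor of long viral RNA (ENSMUSG00000026896, chromosome 2), stood at 0.851, 0.647 and 0.557 FPKM in antagomir libraries and at 0.527, 0.379 and 0.354 FPKM in control libraries. These groups did not overlap either, and the lowest antagomir and highest control values were close (log2 fold change 0.25, SE 0.13, adjusted p = 0.817 by limma). Without the 3 libraries with lens transcripts, the log2 fold change was 0.069 for Ifih1 and 0.19 for Ddx58. Dhx58, which encodes LGP2, a regulator of those sensors, ranged from 0.546 to 0.732 FPKM in antagomir retinas and from 0.199 to 0.644 FPKM in control retinas, so its groups overlapped. Zbp1, which encodes a sensor of Z-form nucleic acids, was under the minimum, with 10, 16 and 10 reads in antagomir libraries and 5, 7 and 5 reads in control libraries.

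The 3 signalling factors had a median log2 fold change of 0.053, and their groups overlapped or nearly touched. Stat2, a subunit of the interferon-activated complex (ENSMUSG00000040033, chromosome 10), had the highest level of the 35 genes, at 8.53, 8.33 and 8.84 FPKM in antagomir libraries and 8.10, 8.12 and 8.32 FPKM in control libraries. The groups were separated only by the narrow gap between 8.33 and 8.32 FPKM, and the log2 fold change was 0.059 (SE 0.057, 95% interval -0.075 to 0.19, adjusted p = 0.894 by limma). Irf9, the DNA-binding subunit of that complex, averaged 3.85 ± 0.774 FPKM in antagomir retinas and 3.73 ± 0.780 FPKM in control retinas (SD, n = 3 each). Irf7, a transcription factor that amplifies interferon production, stood at 5.26, 4.28 and 4.98 FPKM in antagomir libraries and at 6.41, 2.77 and 5.34 FPKM in control libraries. Its mean was 4.84 FPKM in both groups, and control libraries 1 and 2 held the highest and lowest values of the 6. Its log2 fold change of 0.053 turned to -0.23 without control library 2.

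The 9 tested antiviral effectors ranged in log2 fold change from -0.22 for Cmpk2 to 0.57 for Oasl2, and 8 were above 0. Oasl2, of the oligoadenylate synthetase-like family (ENSMUSG00000029561, chromosome 5, 114896936 to 114912234 in GRCm38, plus strand), stood at 2.45, 2.45 and 2.57 FPKM in antagomir libraries, against 1.35, 1.48 and 1.25 FPKM in control libraries. These came from 227, 254 and 270 reads in antagomir libraries and 128, 143 and 110 reads in control libraries. The values within each group lay close together and the groups were far apart. The log2 fold change was 0.57 (SE 0.091, 95% interval 0.35 to 0.78), with the smallest p of the 25 tested genes, adjusted p = 0.38 by limma and a range of 0.197 to 0.977 over the alternative settings. It lay between 0.53 and 0.60 with any single library left out and was 0.58 without the 3 libraries with lens transcripts. The oligoadenylate synthetases on the list, Oas1a, Oas2 and Oas3, which activate the nuclease RNase L, were under the minimum. Outside the list, Oas1b and Oas1c were above it, at means over all libraries of 0.81 and 0.53 FPKM. Their groups overlapped, with log2 fold changes of 0.23 for Oas1b and -0.0035 for Oas1c. Oas2 had 17, 13 and 23 reads in antagomir libraries and 11, 8 and 15 in control libraries, and Oas3 had 9 in each antagomir library and 7, 9 and 3 in control libraries. Oas1a had 5, 4 and 9 reads in antagomir libraries and 2, 2 and 0 in control libraries, too few for a fold change, and its relatives share sequence with it.

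The IFIT genes, whose proteins bind viral RNA and block its translation, lie side by side on chromosome 19 and had log2 fold changes between 0.059 and 0.52. Ifit3 (ENSMUSG00000074896) stood at 8.12, 5.07 and 4.83 FPKM in antagomir libraries and at 4.47, 4.90 and 4.27 FPKM in control libraries. Antagomir library 1 was far above the others, and antagomir library 3 lay within the control range. The log2 fold change of Ifit3 was 0.31 (SE 0.17, adjusted p = 0.820 by limma) and 0.10 without antagomir library 1. Ifit1 stood at 2.17, 0.625 and 1.46 FPKM in antagomir libraries and at 0.784, 0.496 and 0.599 FPKM in control libraries, again highest in antagomir library 1. Its log2 fold change of 0.52 (SE 0.245, adjusted p = 0.802 by limma) was 0.30 without that library and 0.16 without the 3 libraries with lens transcripts. Ifit2 averaged 3.84 ± 0.227 FPKM in antagomir retinas and 3.58 ± 0.664 FPKM in control retinas, and Ifit3b averaged 1.97 ± 0.712 FPKM in antagomir retinas and 1.81 ± 0.230 FPKM in control retinas (SD, n = 3 each). Ifit3 and Ifit3b are near-identical copies, so the split of reads between them is uncertain.

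The other effectors overlapped between groups or were too low to test. Bst2, which encodes the virion-tethering protein tetherin, ranged from 3.81 to 6.24 FPKM in antagomir retinas and from 3.21 to 4.84 FPKM in control retinas. Eif2ak2, which encodes the RNA-dependent kinase PKR, ranged from 2.10 to 2.42 FPKM in antagomir retinas and from 1.61 to 2.58 FPKM in control retinas. Samd9l, an antiviral and growth-restraining gene, averaged 0.696 ± 0.115 FPKM in antagomir retinas and 0.558 ± 0.127 FPKM in control retinas (SD, n = 3 each). Cmpk2, which encodes a mitochondrial nucleotide kinase, was lower on average. It averaged 2.39 ± 0.535 FPKM in antagomir retinas and 2.92 ± 0.288 FPKM in control retinas, a log2 fold change of -0.22 (SE 0.13, adjusted p = 0.835 by limma) that kept its sign in every alternative setting. Its neighbour on chromosome 12, Rsad2, which encodes the antiviral enzyme viperin, had 62, 9 and 26 reads in antagomir libraries and 16, 5 and 2 in control libraries. Antagomir library 1 held most of the Rsad2 reads of its group, while antagomir library 2 lay within the control range.

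The GTPase genes Mx1 and Mx2, on chromosome 16, were both under the minimum, and neither had overlapping groups. Mx2, annotated as a polymorphic pseudogene, had 33, 14 and 26 reads in antagomir libraries and 9, 6 and 3 in control libraries. Mx1 had 16, 5 and 6 reads in antagomir libraries and 4, 4 and 3 in control libraries, and 2 of its antagomir libraries were close to the controls. Oasl1, next to Oasl2 on chromosome 5, had 13, 2 and 5 reads in antagomir libraries and 1, 3 and 2 in control libraries, with overlap.

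**Figure D3:**
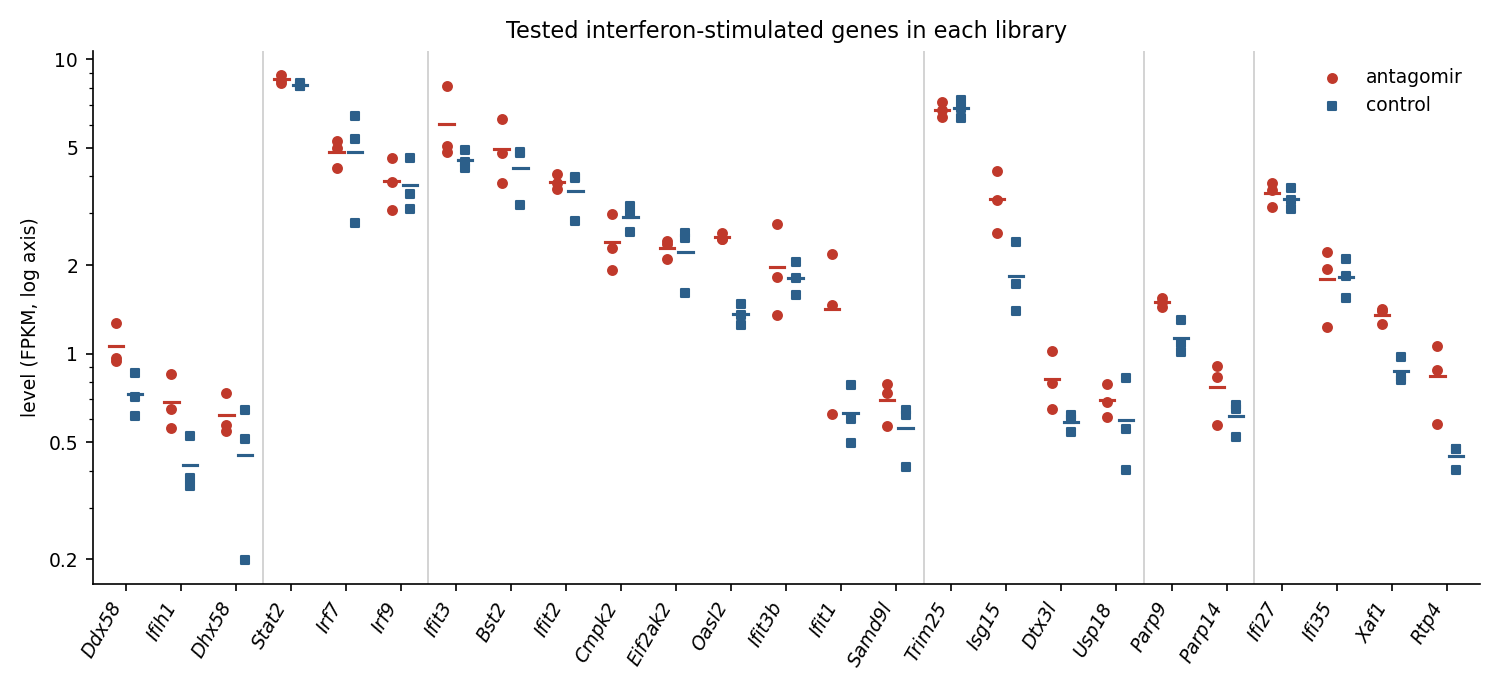
Level (FPKM, log axis) of the 25 tested interferon-stimulated genes in each of 3 antagomir and 3 control libraries, in order of role from sensors to other induced genes; points are libraries and bars are means. The Oasl2 groups lie tightly apart, at a mean of 2.49 FPKM in antagomir and 1.36 FPKM in control libraries, while Ifit1 and Ifit3 spread widely inside the antagomir group.

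ISG15 is a small ubiquitin-like protein that is attached to other proteins during the interferon response. Isg15 (ENSMUSG00000035692, chromosome 4, 156199424 to 156200818 in GRCm38, minus strand) stood at 4.18, 3.33 and 2.57 FPKM in antagomir libraries and at 2.40, 1.39 and 1.72 FPKM in control libraries. These rested on few reads, with 46, 41 and 32 in antagomir libraries and 27, 16 and 18 in control libraries. The groups were separate and the log2 fold change was 0.62 (SE 0.18, 95% interval 0.19 to 1.05, adjusted p = 0.801 by limma). Without the 3 libraries with lens transcripts it was 0.21.

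Usp18, which removes ISG15 and restrains receptor signalling, averaged 0.693 ± 0.0906 FPKM in antagomir retinas and 0.595 ± 0.217 FPKM in control retinas, with overlap (SD, n = 3 each). Herc6, the ISG15 ligase of mouse cells, had 58, 67 and 46 reads in antagomir libraries and 45, 37 and 35 in control libraries, and its FPKM values overlapped. Trim25, a ubiquitin ligase that activates RIG-I, stood at 6.73, 7.16 and 6.35 FPKM in antagomir libraries and at 7.27, 6.85 and 6.30 FPKM in control libraries. Its values were interleaved, and the log2 fold change of -0.010 had a 95% interval of -0.19 to 0.17.

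Parp9, Dtx3l and Parp14 lie within 35832874 to 35972605 on chromosome 16 and encode ADP-ribosyltransferases and a ubiquitin ligase that binds PARP9. Parp9 stood at 1.44, 1.55 and 1.49 FPKM in antagomir libraries and at 1.30, 1.01 and 1.08 FPKM in control libraries, a log2 fold change of 0.23 (SE 0.10, adjusted p = 0.802 by limma). Dtx3l stood at 0.793, 1.02 and 0.646 FPKM in antagomir libraries and at 0.540, 0.598 and 0.619 FPKM in control libraries, a log2 fold change of 0.19 (SE 0.13, adjusted p = 0.844 by limma). Neither gene had overlapping groups, though for Dtx3l the nearest antagomir and control libraries were 0.646 and 0.619 FPKM. Parp9 and Dtx3l overlap by 682 bases on opposite strands, and without a stated strand setting their reads there cannot be told apart. Of the 35 genes, 13 overlap another gene of the table, among them Irf7 with Phrf1 (45 bases, opposite strands), Rtp4 with Masp1 (525 bases, opposite strands) and Irf9 with Rnf31 (123 bases, same strand). How reads in such shared stretches were assigned is not given in the sources used here. Parp14 averaged 0.771 ± 0.175 FPKM in antagomir retinas and 0.614 ± 0.0817 FPKM in control retinas, with overlap (SD, n = 3 each).

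Of the remaining interferon-induced genes, Xaf1 and Rtp4 had separate groups. Xaf1, which encodes a pro-apoptotic partner of XIAP (ENSMUSG00000040483, chromosome 11), stood at 1.26, 1.42 and 1.40 FPKM in antagomir libraries and at 0.975, 0.814 and 0.833 FPKM in control libraries. All antagomir libraries were higher, with a log2 fold change of 0.33 (SE 0.10, adjusted p = 0.801 by limma) that was 0.285 without the 3 libraries with lens transcripts. Rtp4, which encodes a receptor chaperone with antiviral activity (ENSMUSG00000033355, chromosome 16), stood at 1.07, 0.577 and 0.882 FPKM in antagomir libraries and at 0.473, 0.401 and 0.475 FPKM in control libraries. The control values were close together and the antagomir values were spread above them (log2 fold change 0.34, SE 0.14, adjusted p = 0.801 by limma, from 20 to 33 reads per antagomir library and 13 to 15 per control library). Ifi27, which encodes a mitochondrial protein, averaged 3.51 ± 0.336 FPKM in antagomir retinas and 3.36 ± 0.282 FPKM in control retinas, and Ifi35, a partner of NMI, averaged 1.79 ± 0.501 FPKM in antagomir retinas and 1.82 ± 0.273 FPKM in control retinas (SD, n = 3 each). Ifi44 was under the minimum, with 7, 15 and 11 reads in antagomir libraries and 3, 4 and 5 in control libraries.

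**Figure D4:**
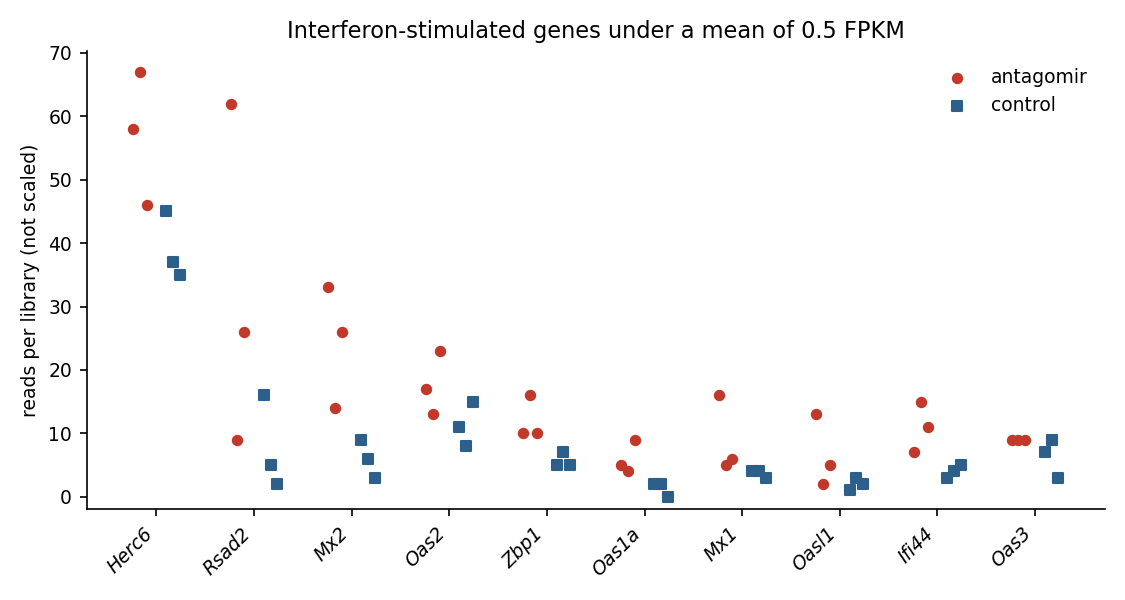
Reads per library, not scaled for depth, of the 10 interferon-stimulated genes under a mean of 0.5 FPKM, antagomir libraries left of control libraries. Rsad2 reached 62 reads in antagomir library 1 and 2 to 16 in the control libraries.

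Taking these 10 low genes together, their FPKM did not overlap for 5 (Mx2, Zbp1, Oas1a, Mx1 and Ifi44), or 50%, against 3.82% of 9024 genes with a mean of 0.05 to 0.5 FPKM. Their summed reads were 230, 154 and 171 in antagomir libraries and 103, 85 and 73 in control libraries, out of 13727596 to 16502352 reads per library. These counts limit what single genes of the set can show.

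The genes did not peak in the same library. Of the 35 genes, 15 had their highest value in antagomir library 1, 10 in antagomir library 2 and 5 in antagomir library 3, and 3, 1 and 1 in control libraries 1, 2 and 3. Antagomir library 1 led for 40% of the 25 tested genes, against 14.5% of all genes tested. The lowest value was in control library 3 for 14 genes and in control library 2 for 12. The genes highest in antagomir library 1 included Ifit1, Ifit3, Ifit3b, Rsad2, Mx1, Mx2, Oasl1, Isg15, Ddx58 and Ifih1, while Dtx3l, Parp9, Parp14, Xaf1, Zbp1 and Ifi44 were highest in antagomir library 2. The summed level of the 35 genes was 76.4, 65.2 and 67.1 FPKM in antagomir libraries and 64.6, 55.2 and 58.5 FPKM in control libraries.

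The libraries differed in other cell types too. The retinal label held in every library, with Gnat1, which encodes rod transducin, at 2370 ± 133 FPKM in antagomir retinas and 2393 ± 120 FPKM in control retinas (SD, n = 3 each), and Glul and Apoe leading the Müller glia list. All 20 lens markers were detected, led by Crygb and Cryaa, and summed to 752, 17.8 and 5.23 FPKM in antagomir libraries and to 8.62, 1401 and 642 FPKM in control libraries, so antagomir library 1 and control libraries 2 and 3 carried lens transcripts. All 20 microglia and macrophage markers were detected, led by Ctss and C1qb, and summed to 88.0, 191 and 129 FPKM in antagomir libraries and to 104, 80.6 and 94.9 FPKM in control libraries. Of the 17 microglia markers tested, 13 had a log2 fold change above 0 (median 0.30) and 0 passed. The microglia sum was highest in antagomir library 2, and antagomir library 3 also lay above every control library. Of 20 markers of infiltrating leukocytes, Cd3e, Ms4a1, Ncr1 and Nkg7 were at 0 in every library, and 4 reached a mean of 0.5 FPKM (Cd8a and Siglech were highest). The sum was 4.47 to 5.71 FPKM in antagomir libraries and 3.56 to 4.02 FPKM in control libraries. The list did not move together. Of the 4 tested markers, S100a9 had a log2 fold change of 0.83, against -0.020 for Cd8a, -0.18 for Siglech and -0.24 for Camp. S100a9 reached the minimum only through its antagomir values. Endothelial markers, led by Kdr and Cldn5, summed to 30.7, 36.1 and 48.4 FPKM in antagomir libraries and to 30.4, 56.8 and 27.5 FPKM in control libraries. The part of these cell types in the levels of interferon-stimulated genes was not tested.

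**Figure D5:**
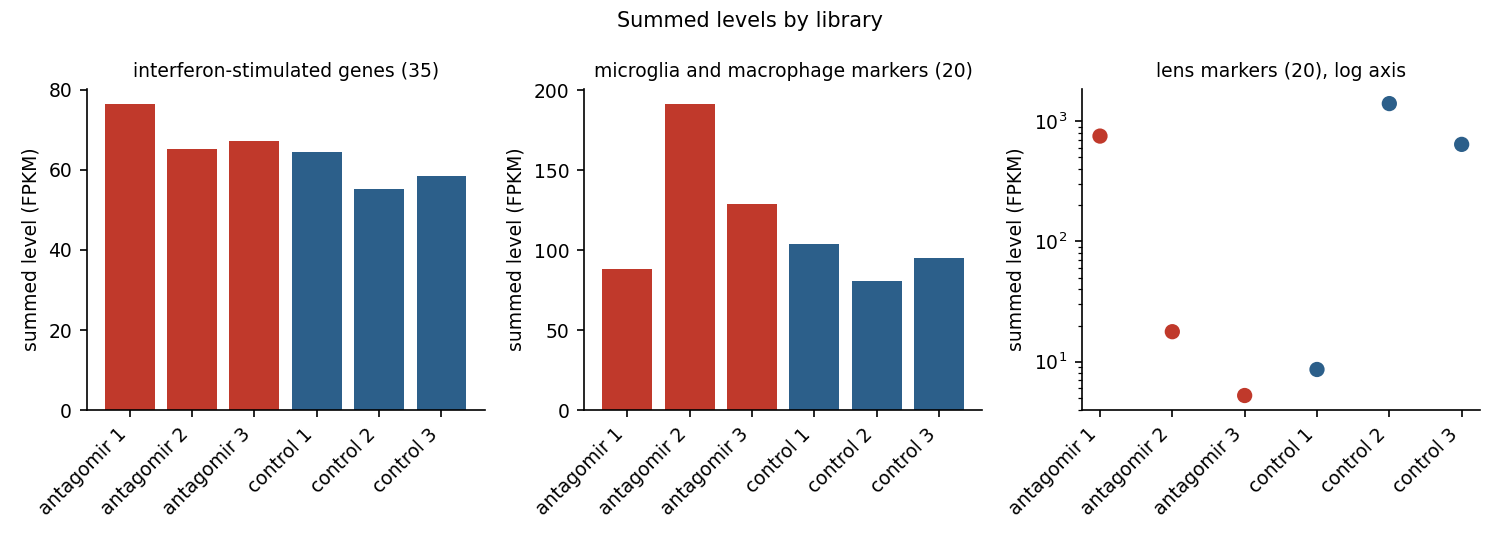
Summed FPKM by library of the 35 interferon-stimulated genes, of 20 microglia and macrophage markers and of 20 lens markers (log axis), with antagomir libraries in red and control libraries in blue. The interferon-stimulated sum is highest in antagomir library 1 at 76.4 FPKM, the microglia sum in antagomir library 2 at 191 FPKM, and the lens sum in control library 2 at 1401 FPKM.

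Of 8 interferon ligand genes looked up, which are not all of the mouse family, Ifnb1, Ifna4, Ifna2, Ifnk, Ifne and Ifng had 0 reads in each library, which allows up to 3 reads per library. Ifnl2 had 2 reads in antagomir library 1, and Ifnl3 had 2 reads in control library 2. The receptor subunit genes were present. Ifngr1, of the interferon-gamma receptor, averaged 13.0 ± 1.02 FPKM in antagomir retinas and 13.1 ± 0.532 FPKM in control retinas, and Ifnar1, of the type I receptor, averaged 11.6 ± 0.828 FPKM in antagomir retinas and 10.9 ± 0.111 FPKM in control retinas (SD, n = 3 each). Of the 5 tested ligand and receptor genes, 4 had a log2 fold change above 0 and 0 passed (median 0.072).

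Other lists of the pathway gave 0 genes past an adjusted p of 0.05 by limma, in either direction. Of 15 tested genes of signal transduction, 11 were above 0 (median log2 fold change 0.050), with Irf2bp1, a corepressor of IRF2, at 21.6 ± 2.36 FPKM in antagomir retinas and 20.8 ± 1.47 FPKM in control retinas, and Jak1, the receptor-bound kinase, at 20.6 ± 0.723 FPKM in antagomir retinas and 21.6 ± 1.06 FPKM in control retinas. Of 11 tested nucleic acid sensors and adaptors, 8 were above 0 (median 0.056), where 50.5% of all genes tested were. The kinase gene Tbk1 averaged 14.6 ± 0.675 FPKM in antagomir retinas and 14.1 ± 0.429 FPKM in control retinas. Zcchc3, a cofactor of nucleic acid sensing, averaged 12.8 ± 0.0696 FPKM in antagomir retinas and 13.2 ± 0.323 FPKM in control retinas (SD, n = 3 each). In this list, groups did not overlap for 2 higher genes (Samhd1 and Tmem173) and 2 lower genes (Zcchc3 and Adar). Tmem173 reached the minimum only through its antagomir values, with a control mean of 0.431 FPKM. Of 38 tested interferon-stimulated genes outside the list of 35, 28 were above 0 (median 0.13). At an unadjusted p under 0.05 by limma, 3 of the 38 were higher and 0 lower, where 3.22% and 2.98% of all genes were, and groups did not overlap for 4 that were higher and 1 that was lower, where 6.16% and 5.87% of all genes did not. Tdrd7, an interferon effector that inhibits autophagy, averaged 99.7 ± 11.5 FPKM in antagomir retinas and 91.6 ± 3.47 FPKM in control retinas, and Trafd1, a feedback regulator, averaged 88.1 ± 2.50 FPKM in antagomir retinas and 88.8 ± 4.09 FPKM in control retinas (SD, n = 3 each).

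Among 17 tested genes that interferon-gamma induces in particular (GTPases, immunoproteasome and peptide loading), 16 were above 0 (median log2 fold change 0.26). All antagomir libraries lay above all control libraries for 8 of the 17, where 6.16% of all genes tested did, and below them for 0, where 5.87% did. At an unadjusted p under 0.05 by limma, 7 were higher and 0 lower, where 3.22% and 2.98% of all genes were. The 8 and the 7 both include Gbp9, Irgm2 and Psmb8, which reached the minimum only through their antagomir values. Their control means were 0.391, 0.406 and 0.494 FPKM. B2m, the light chain of MHC class I, stood at 46.6, 76.0 and 76.4 FPKM in antagomir libraries and at 44.5, 36.0 and 31.0 FPKM in control libraries. Its groups were separate, though antagomir library 1 was close to control library 1 (log2 fold change 0.80, SE 0.215, adjusted p = 0.801 by limma). Tapbp, the peptide-loading chaperone tapasin, averaged 15.3 ± 2.09 FPKM in antagomir retinas and 12.55 ± 0.820 FPKM in control retinas (SD, n = 3 each). The guanylate-binding protein gene Gbp9, named after its values were seen, stood at 0.957, 0.867 and 1.01 FPKM in antagomir libraries and at 0.364, 0.445 and 0.363 FPKM in control libraries (log2 fold change 0.48, SE 0.11, adjusted p = 0.759 by limma). Like Oasl2, it had tight values inside each group and no overlap.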

How the data were processed

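The authors deposited 1 table of FPKM values, together with gene positions, lengths and biotypes, for 54532 genes and 6 libraries, per the file headers. RNA was isolated with TRNzol and sequenced from SMARTER libraries, per the labels' protocols. GRCm38 and mm10 are the builds in the submitters' processing notes; which aligner, counter and strand setting made the values is not given in the sources used here. All 35 genes had the coordinates of GENCODE M21 (GRCm38).

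Multiplied by gene length and by a library total inferred from the lowest values, the FPKM values fell on whole numbers of reads (100% of values within 0.01 reads). Reads rebuilt in this way summed to 13727596 to 16502352 per library and gave the read numbers in the text. The inferred totals, 13830278 to 16494144, were not equal to these sums. In control library 1 the sum was 15200313 and the inferred total 14880371. What the total counts is not given in the sources used here. Of all genes, 17453 with a mean of at least 0.5 FPKM entered limma 3.58.1 (R 4.3.3) on log2(FPKM + 1), with variances moderated along a trend, no covariates and two-sided p-values. These were adjusted by Benjamini-Hochberg across the 17453 genes, with 0.05 as the threshold. The test was tried on simulated data. No library repeated another: the lowest chi-square per degree of freedom between a pair was 4.79. That pair was antagomir library 1 and control library 3, which both carried lens transcripts. Pairs within a group ran from 6.38 to 15, so the most alike libraries were not of the same group. Chromosome 18 was left out of the promoter search.

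The 35 genes and all lists were chosen with earlier results of these data known. Values per library are given for genes whose groups do not overlap and for the 4 with the highest mean level. From each other list the 2 genes with the highest mean are named, except for an item that is not reported here. Values per library of Ifit1, Rsad2, Oas2, Oas3, Oasl1, Herc6 and B2m, and all those of Gbp9, were added after they were seen. Alternatives were a pseudocount of 0.1, no filter, a minimum of 2 FPKM, TPM, quantile normalization, voom on rebuilt reads, no variance trend, a replicate block and leaving out each library. A fit without the 3 libraries whose lens markers summed to over 100 FPKM was chosen after seeing the data.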

Additional observations from a re-analysis of the deposited data

How the results depend on the processing

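The count of interferon-stimulated genes past an adjusted p of 0.05 was 0 under limma and under every alternative tried, voom included. Over all genes, limma passed 0, voom on rebuilt reads 1 and eBayes without a trend 5, and 0 to 2 with a library left out. The count at an unadjusted p under 0.05, 3 by limma, was 7 without a filter, by voom and without a trend, 1 with a minimum of 2 FPKM (11 genes left), 3 to 5 with a library left out, and 1 without the 3 libraries with lens transcripts. Those counts were all higher in antagomir retinas, except 1 of 4 without antagomir replicate 1. The number of genes above 0 was 20 to 23 of 25 with a library left out, 9 of 11 with a minimum of 2 FPKM and 32 of 35 without a filter. The median log2 fold change of 0.13 was 0.27 with a pseudocount of 0.1, 0.23 as TPM and 0.297 by voom, 0.053 with a minimum of 2 FPKM, and 0.10 to 0.17 with a library left out.

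Of single genes, 18 of the values under alternatives turned in sign, none of them past the threshold. With a library left out, Irf7 ran from -0.235 (without control replicate 2) to 0.25, Irf9 from -0.081 to 0.16, Ifit2 from -0.039 to 0.15, Eif2ak2 from -0.10 to 0.13, Ifit3b from -0.12 to 0.21, Ifi35 from -0.14 to 0.12 and Trim25 from -0.058 to 0.032. Without the 3 libraries with lens transcripts, Irf7 was -0.399, Irf9 -0.225, Ifit2 -0.072, Ifi27 -0.097, Eif2ak2 -0.136, Ifit3b -0.0025 and Ifi35 0.116. The cause was not tested.

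Same-numbered libraries did not vary together (r = -0.19, -0.10 and -0.14 across genes for numbers 1, 2 and 3). The labels do not say whether the numbers pair the samples, and with 3 libraries per group these values cannot decide it. With a replicate block in limma, 0 interferon-stimulated genes passed and 3 had an unadjusted p under 0.05. Of all genes, 856 had such an unadjusted p with the block, against 1082 without it. Reads limit the low genes: 7 of the 10 under 0.5 FPKM had fewer than 30 reads in every library.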

Other observations

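S100a9, which encodes a calcium-binding alarmin of neutrophils and activated myeloid cells and was named after its values were seen, stood at 0.922, 1.06 and 0.813 FPKM in antagomir libraries and at 0.129, 0 and 0.139 FPKM in control libraries. Its groups did not overlap (log2 fold change 0.83, SE 0.13, adjusted p = 0.38 by limma). Its mean over all libraries was 0.510 FPKM and its control mean 0.0891 FPKM, so it was tested only because of its antagomir values. Its partner S100a8 stood at 0.694, 1.06 and 0.175 FPKM in antagomir libraries and at 0.0968, 0 and 0.313 FPKM in control libraries, with overlap. The neutrophil marker Ly6g had a value above 0 in antagomir library 2 and was listed at 0 in the other libraries. Camp, another neutrophil gene, averaged 0.481 ± 0.211 FPKM in antagomir retinas and 0.755 ± 0.273 FPKM in control retinas (SD, n = 3 each), and of the 4 tested leukocyte markers 1 was above 0 (median log2 fold change -0.10). The chemokine gene Cxcl10, which interferon induces, had 10, 4 and 6 reads in antagomir libraries and 4, 0 and 0 reads in control libraries. It was under the minimum, was not among the genes picked by level, and its groups overlapped. Of the other listed chemokine genes, Ccl5 had 6, 13 and 2 reads in antagomir libraries and 1, 5 and 1 in control libraries. Ccl2 had 2, 14 and 3 against 5, 0 and 0, and Cxcl9 had 0, 0 and 1 against 1, 0 and 0.

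Psmb8, an immunoproteasome gene also named after its values were seen, stood at 0.779, 2.13 and 1.06 FPKM in antagomir libraries and at 0.442, 0.433 and 0.608 FPKM in control libraries, without overlap (log2 fold change 0.60, SE 0.22, adjusted p = 0.801 by limma). Its control mean of 0.494 FPKM was under the minimum.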
